A study of Mus musculus with 18 samples.

Results

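The 40 genes described here encode the enzymes and carriers that take glucose to lactate and pyruvate through the tricarboxylic acid (TCA) cycle. They were chosen by a list of gene names, and each was 1 row of both deposited tables, among 34385 genes of a knockdown table and 34396 genes of an overexpression table. Of the 40, 20 belong to glycolysis, glucose entry and lactate, 16 to the pyruvate dehydrogenase complex and the TCA cycle, and 4 are the isocitrate, malate and aspartate enzymes Idh1, Mdh1, Got1 and Got2. In glycolysis, glucose is split to pyruvate in the cytosol and NAD+ is reduced at glyceraldehyde 3-phosphate dehydrogenase, while lactate dehydrogenase turns pyruvate into lactate and gives NAD+ back. In mitochondria, pyruvate dehydrogenase feeds the TCA cycle, whose isocitrate, oxoglutarate and malate dehydrogenases pass electrons to NAD+. The malate and aspartate enzymes carry reducing power from the cytosol across the inner membrane. NMNAT1, a nuclear enzyme, and NMNAT2, a cytosolic and Golgi-bound enzyme of neurons, both make NAD+ from nicotinamide mononucleotide, and photoreceptors are known for making lactate from glucose while oxygen is present.

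The retinas came from outbred ICR mice at postnatal day 0.5 and were given plasmids by electroporation, then grown as explants for 3 days before RNA sequencing. The 6 groups held 3 libraries each: a scramble plasmid, Nmnat1 knockdown and Nmnat2 knockdown in the knockdown table, and an empty vector, Nmnat1 overexpression and Nmnat2 overexpression in the overexpression table. All 18 samples, the controls included, also received a plasmid for EGFP, and only EGFP-positive cells, isolated on a cell sorter, were sequenced, so that no group stands for an untreated or a whole retina. The labels do not say which promoter drove a plasmid, how many hairpins were used or whether libraries of a group came from separate animals, so the p-values rest on library-to-library spread that could be technical. The title of 1 Nmnat2 knockdown sample and of 1 Nmnat2 overexpression sample names Nmnat3, while the other labels of both name Nmnat2 and were followed.

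The promoters of some members are shown first. Ldha, Aldoa, Gpi1 and Eno2 had lower means than their controls with Nmnat2 knockdown and in both overexpression groups, whereas Gapdh had not. The pattern is not particular to them: Tpi1, Pkm, Suclg1, Mdh2 and Got1 were below their controls without overlap in the same comparisons. Eno2 overlapped its control with Nmnat1 overexpression. Windows of Mdh1 and Aldoc, which were called in a knockdown comparison below, are not shown. Each window runs from 250 bases before to 50 bases after a RefSeq start site on GRCm38.p6 and is written 5′ to 3′ on the strand of the gene. Capitals mark ACGTG and GCGTG on either strand, the core letters of the element that hypoxia-inducible factor is known to bind in glycolytic genes.
Ldha, chr7:46845554-46845853, plus strand: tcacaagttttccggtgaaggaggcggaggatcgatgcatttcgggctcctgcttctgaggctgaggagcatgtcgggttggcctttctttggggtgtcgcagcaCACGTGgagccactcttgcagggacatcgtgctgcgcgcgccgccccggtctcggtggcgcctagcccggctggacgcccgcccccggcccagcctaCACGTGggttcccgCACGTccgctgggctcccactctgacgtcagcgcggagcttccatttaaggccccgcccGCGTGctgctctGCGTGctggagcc
Aldoa, chr7:126799129-126799428, minus strand: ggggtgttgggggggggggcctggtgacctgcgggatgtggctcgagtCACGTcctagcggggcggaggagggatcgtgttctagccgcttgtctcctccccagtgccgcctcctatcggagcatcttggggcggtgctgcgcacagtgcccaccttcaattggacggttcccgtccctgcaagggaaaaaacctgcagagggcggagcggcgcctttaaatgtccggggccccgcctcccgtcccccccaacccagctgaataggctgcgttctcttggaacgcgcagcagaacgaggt
Gapdh, chr6:125165724-125166023, minus strand: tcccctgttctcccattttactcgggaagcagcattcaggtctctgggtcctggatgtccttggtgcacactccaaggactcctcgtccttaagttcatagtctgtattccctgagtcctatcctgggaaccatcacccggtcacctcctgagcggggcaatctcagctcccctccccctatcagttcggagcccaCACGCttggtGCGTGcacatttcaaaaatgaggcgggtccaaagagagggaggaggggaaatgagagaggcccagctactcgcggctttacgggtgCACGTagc
Gpi1, chr7:34230287-34230586, minus strand: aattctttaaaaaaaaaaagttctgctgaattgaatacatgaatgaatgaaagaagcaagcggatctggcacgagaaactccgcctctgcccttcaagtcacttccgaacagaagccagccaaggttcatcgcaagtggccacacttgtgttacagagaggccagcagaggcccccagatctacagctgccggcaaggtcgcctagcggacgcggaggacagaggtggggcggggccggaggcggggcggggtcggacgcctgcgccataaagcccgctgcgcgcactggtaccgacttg
Eno2, chr6:124769624-124769923, minus strand: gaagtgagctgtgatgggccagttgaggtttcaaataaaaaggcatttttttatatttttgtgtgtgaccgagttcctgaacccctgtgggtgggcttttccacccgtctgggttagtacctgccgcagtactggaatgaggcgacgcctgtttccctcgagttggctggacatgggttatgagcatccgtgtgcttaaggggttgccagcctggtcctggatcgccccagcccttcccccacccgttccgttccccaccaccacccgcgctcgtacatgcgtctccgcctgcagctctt
The Ldha window held 5 matches to ACGTG and 2 to GCGTG, and 2 places in it read CACGTG, a palindrome that holds ACGTG on each strand and was therefore counted on each. The Gapdh window held 1 and 2 matches, and the Aldoa window held 1 match to ACGTG. Neither Gpi1 nor Eno2 had these letters in its window. RefSeq promoters were found for 39 of the 40 members (all but Idh3a), and 28 of those 39 held ACGTG or GCGTG (71.8%), against 43.8% of the 32851 promoters of the same length in the RefSeq table. For ACGTG alone the shares were 35.9% of members and 19.6% of all promoters, for GCGTG alone 59.0% and 32.4%, and for CACGTG 10.3% and 7.15%. The letters TAATCC, searched on both strands as a core of the photoreceptor factor CRX, were in 2 of the 39 windows and in 7.06% of all promoters. Each member was given 1 window, the one with most annotated coding transcript starts within 100 bases. The shares of all promoters count every promoter listed, without such a choice, so the 2 sets of shares were not chosen alike. These matches describe the letters only.

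Values are given as parts per 1000000 (ppm) of the column sum of a deposited signal that is already scaled to gene length, so levels of different genes can be compared per length. Relative depth of the libraries lay between 0.777 and 1.35 times that of the median library for knockdown and between 0.820 and 1.14 in the overexpression table, and 1 ppm of a gene of 1 kb was worth about 11.4 to 20.9 reads. All 40 members passed the filter of 1 ppm in 3 of 9 libraries in both tables. Nmnat1 itself lay at 17.0 to 20.9 ppm with scramble and at 7.37 to 8.54 ppm in its knockdown. Nmnat2 lay at 6.22, 0.624 and 2.03 ppm with scramble and at 0.503 to 1.27 ppm in its knockdown. These Nmnat2 ranges overlap at a low level, with widely spread scramble libraries, so its knockdown is not shown by them. With empty vector Nmnat1 lay at 18.7 to 22.6 ppm and Nmnat2 at 1.14 to 2.71 ppm, and in their own overexpression groups they lay at 14797 to 27832 and 20911 to 22818 ppm. The other gene was also above empty vector in every library. Nmnat1 lay at 39.39 to 45.55 ppm with Nmnat2 overexpression, and Nmnat2 at 3.121 to 6.497 ppm with Nmnat1 overexpression. Library N2_2 of the Nmnat2 knockdown group stood apart: 32 of the 40 members were lower in it than in the mean of N2_1 and N2_3, with a median log2 difference of -0.39 over the 20 members with the shorter transcripts and -1.19 over the 20 with the longer ones. Across the 40 members this difference correlated with log2 transcript length at Pearson r = -0.41 (Spearman rho = -0.40), a description over genes of the same 3 libraries. In the overexpression table the libraries numbered 1 of both Nmnat groups stood apart from libraries 2 and 3 in several members. The empty vector library 1 did so too, with Pkm at 1746, 2053 and 2026 ppm and Got1 at 95.8, 67.0 and 73.0 ppm. Scramble library C1 also differed from C2 and C3, at a chi-square per gene against counting noise of 79.3 and 74.0, beside 17.8 between C2 and C3. Results are therefore given with and without N2_2 and the libraries numbered 1.

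**Figure D1:**
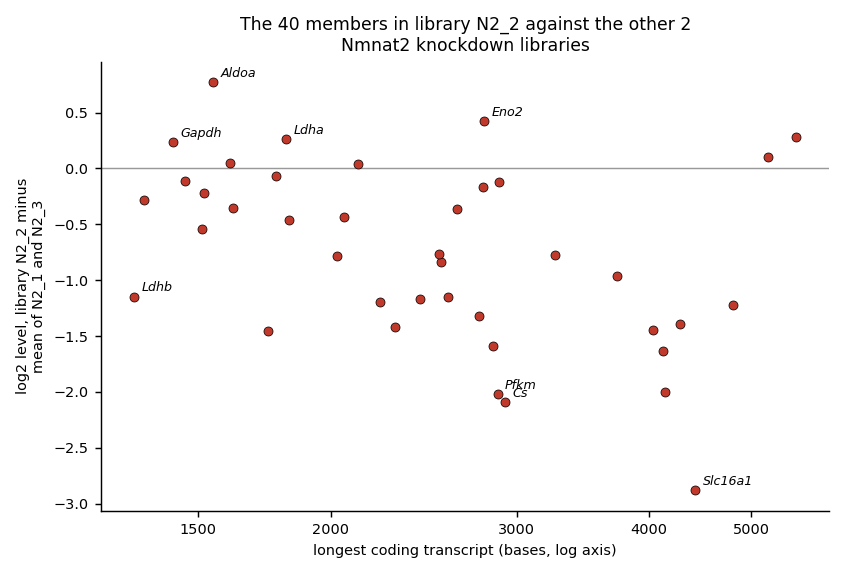
Each point is 1 of the 40 members; the x axis is the length of its longest coding transcript in bases on a log axis and the y axis the log2 level in library N2_2 minus that of the mean of N2_1 and N2_3 in ppm. Most points lie below 0, down to -2.88 for Slc16a1, while Aldoa (0.77), Eno2 (0.42), Ldha (0.26) and Gapdh (0.23) lie above it.

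In the control groups the members spanned more than 3 orders of level, with lactate dehydrogenase A (Ldha, the subunit that favours pyruvate to lactate) far ahead. Ldha averaged 6856 ± 352 ppm with scramble and 7109 ± 66.1 ppm with empty vector (SD, n = 3). The pyruvate kinase gene Pkm, last step of glycolysis, came next at 1886 ± 125 and 1942 ± 170 ppm, followed by the aldolase gene Aldoa at 1169 ± 89.3 and 1022 ± 44.7 ppm and Gapdh at 1012 ± 38.2 and 881 ± 25.5 ppm. Mdh2, the mitochondrial malate dehydrogenase, and Eno1, the ubiquitous enolase, exchanged the next ranks between the tables, and their scramble means (759 ± 43.4 and 737 ± 45.5 ppm) did not differ beyond their spread. At the other end, the hexokinase gene Hk2 averaged 2.97 ± 1.59 and 1.11 ± 0.136 ppm, and the regulators Pdk1 and Pfkfb3 and the lactate carrier gene Slc16a1 had means under 10 ppm in both controls. The 20 genes of glycolysis and lactate together made up 1.35% of the column sum with scramble and 1.35% with empty vector, the 16 of pyruvate dehydrogenase and the TCA cycle 0.279% and 0.292%.

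With Nmnat1 knockdown, the cytosolic malate dehydrogenase gene Mdh1 fell and was the only member past the threshold; Ldha was higher and Gapdh lower in all 3 libraries without passing it. Tests were made with limma on log2(ppm + 1) over all genes of the table, with Benjamini-Hochberg adjustment and a threshold of 0.05. This call of 1 lower member stands against 0.0855% of 22233 genes called lower. Counting instead members whose 3 libraries did not overlap the 3 of scramble, 12 were higher, where 12.8% of all genes were, and 6 were lower, where 12% were. The median log2 fold change of the members was 0.08, beside -0.00 over all genes.

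Mdh1, which with Got1 and Got2 works in the malate-aspartate shuttle, lay at 337, 328 and 347 ppm with scramble and at 141, 174 and 174 ppm with Nmnat1 knockdown. The knockdown libraries were all below the lowest scramble library. The log2 fold change was -1.05 ± 0.15 (standard error, adjusted p = 0.0348 by limma). Got1, Got2 and Idh1 differed by 0.11, 0.15 and -0.13 on the log2 scale, none past the threshold. Mdh2, the mitochondrial counterpart, lay at 730, 809 and 739 ppm with scramble and at 928, 861 and 898 ppm with knockdown, so the pair of malate dehydrogenases lay on opposite sides of scramble (Mdh2 log2 fold change 0.24 ± 0.13, adjusted p = 0.553).

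Ldha was measured at 6489, 6886 and 7191 ppm with scramble and at 10383, 10399 and 10933 ppm with Nmnat1 knockdown. No library of either group fell into the range of the other. The knockdown mean was 1.54 times the scramble mean (log2 fold change 0.63 ± 0.13, adjusted p = 0.124 by limma). Gapdh, whose product reduces NAD+ in glycolysis, lay at 1037, 968 and 1030 ppm with scramble and at 691, 663 and 699 ppm with knockdown, again without overlap (log2 fold change -0.56 ± 0.13, adjusted p = 0.153). Aldoc, the aldolase of brain and retina, lay at 43.3, 49.7 and 53.4 ppm with scramble and at 34.2, 26.5 and 35.1 ppm with knockdown (log2 fold change -0.60 ± 0.21, adjusted p = 0.335), while Aldoa was level at means of 1169 ppm in both groups. Among the other genes of glycolysis, the glucose carrier gene Slc2a1 (log2 fold change 0.49), Pkm (0.35), Eno2 (0.35) and Pgam1 (0.25) were higher in all 3 libraries and Eno1 (-0.29) and Pfkm (-0.39) lower, none past the threshold. In the TCA cycle group 6 of 16 members were higher without overlap, namely Pdhb, Dlat, Idh2, Idh3g, Ogdh and Mdh2, with log2 fold changes between 0.18 and 0.42, and Idh3a was lower (-0.30).

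The number of calls with Nmnat1 knockdown moved with library N2_2, which enters through the spread that the 3 groups share. With N2_2 left out of the fit, 10 members passed: Ldha, Slc2a1, Pkm, Idh2, Ogdh and Mdh2 were higher (4.82% of all genes called higher) and Mdh1, Gapdh, Aldoc and Eno1 lower (3.60% lower). Their fold changes are the same, since N2_2 is in neither group, while the standard error of Ldha went from 0.13 to 0.05. With any other library of the table left out, 0 members passed.

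**Figure D2:**
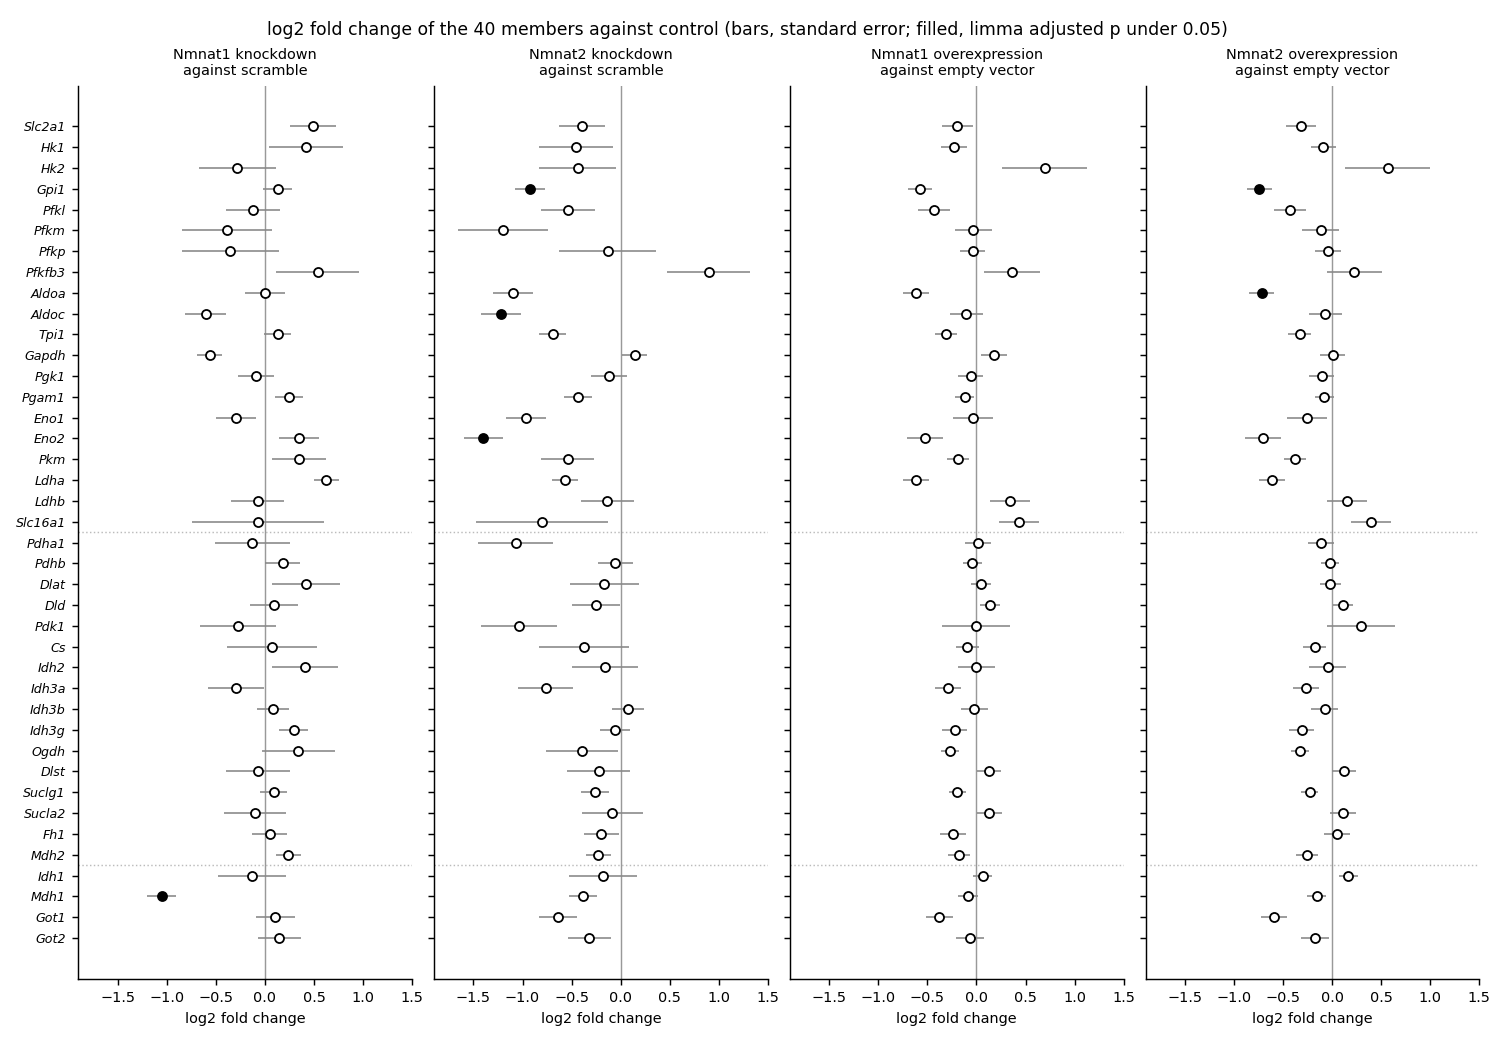
Each panel is 1 comparison with its control; the x axis is the log2 fold change on the log2(ppm + 1) scale and each row a member, ordered from glucose entry to lactate, then the TCA cycle, then the 4 isocitrate, malate and aspartate enzymes. Bars are standard errors and filled points passed the threshold: Mdh1 with Nmnat1 knockdown, Gpi1, Aldoc and Eno2 with Nmnat2 knockdown, none with Nmnat1 overexpression, and Gpi1 and Aldoa with Nmnat2 overexpression.

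With Nmnat2 knockdown, 3 genes of glycolysis fell: Eno2, the neuronal enolase, Gpi1, the glucose 6-phosphate isomerase, and Aldoc. They stand against 0.360% of 22233 genes called lower, and no member was called higher. Without overlap between the groups, 18 members were lower, where 17.2% of all genes were, and 0 were higher, where 4.73% were. Of the 18, 11 belong to glycolysis and lactate, 5 to pyruvate dehydrogenase and the TCA cycle and 2, Mdh1 and Got1, to the remaining enzymes. The median log2 fold change was -0.39 over members and -0.23 over all genes, and without library N2_2 these were -0.107 and -0.145, so that the members' median was no longer below that of all genes. Scaling by the median of ratios shifted the median of all genes to -0.05 and that of the members to -0.15, and 0 members passed under it.

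Eno2 lay at 79.5, 96.7 and 81.6 ppm with scramble and at 33.0, 39.2 and 24.9 ppm with Nmnat2 knockdown. The knockdown mean was 0.377 times the scramble mean and the groups did not overlap. The log2 fold change was -1.40 ± 0.20 (adjusted p = 0.0268 by limma) and -1.16 under median-of-ratios scaling. Gpi1 lay at 185, 228 and 201 ppm with scramble and at 113, 101 and 108 ppm with knockdown, with the 3 knockdown libraries close together (log2 fold change -0.92 ± 0.15, adjusted p = 0.0379 by limma, and -0.68 under median-of-ratios scaling). Aldoc lay at 22.4, 18.8 and 19.9 ppm with knockdown, below all scramble libraries (log2 fold change -1.22 ± 0.21, adjusted p = 0.0407 by limma, and -0.99 under median-of-ratios scaling).

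The abundant enzymes of the same stretch of the pathway were lower in all 3 libraries without passing. Aldoa, at 1067, 1209 and 1231 ppm with scramble, lay at 453, 778 and 459 ppm with Nmnat2 knockdown, where N2_2 is the high library (log2 fold change -1.10 ± 0.20, adjusted p = 0.0533 by limma). Ldha lay at 4415, 5215 and 4291 ppm, again with N2_2 highest and again under all scramble libraries (log2 fold change -0.57 ± 0.13, adjusted p = 0.0932). Triose phosphate isomerase (Tpi1) lay at 441, 513 and 451 ppm with scramble and at 289, 295 and 281 ppm with knockdown (log2 fold change -0.69 ± 0.13, adjusted p = 0.0581). Eno1, Pgam1, Pkm, Pfkl and Pfkm were also below scramble in every library, with log2 fold changes between -1.20 for Pfkm and -0.44 for Pgam1. Not all glycolytic genes were lower: Gapdh lay at 1036, 1243 and 1076 ppm, overlapping scramble (log2 fold change 0.14), and Pgk1 and Ldhb differed by -0.12 and -0.14. Pfkfb3, which makes the activator of phosphofructokinase, had the highest log2 fold change of all members (0.895 ± 0.42, adjusted p = 0.318) with overlapping groups.

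In the TCA cycle group none passed, and Pdha1, Idh3a, Suclg1, Mdh2 and Pdk1 were the 5 without overlap. The citrate synthase gene Cs shows the effect of N2_2: it lay at 173, 178 and 160 ppm with scramble and at 215, 49.2 and 211 ppm with Nmnat2 knockdown. N2_1 and N2_3 were above all scramble libraries and N2_2 was below them. With N2_2 left out, 13 members passed as lower (7.51% of all genes) and 2 as higher (7.99%). Those lower were Eno2, Aldoa, Aldoc, Gpi1, Tpi1, Eno1, Ldha, Pdha1, Pfkm, Got1, Pgam1, Mdh1 and Idh3a, with log2 fold changes from -1.54 for Eno2 to -0.38 for Idh3a, and those higher were Cs (0.32 ± 0.08) and Pfkfb3 (1.30 ± 0.35). With any other library left out, 0 members passed. The pooled values of members in which N2_2 is far from the other libraries, such as Cs, Slc16a1, Pfkm and Pkm, rest on that library.

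**Figure D3:**
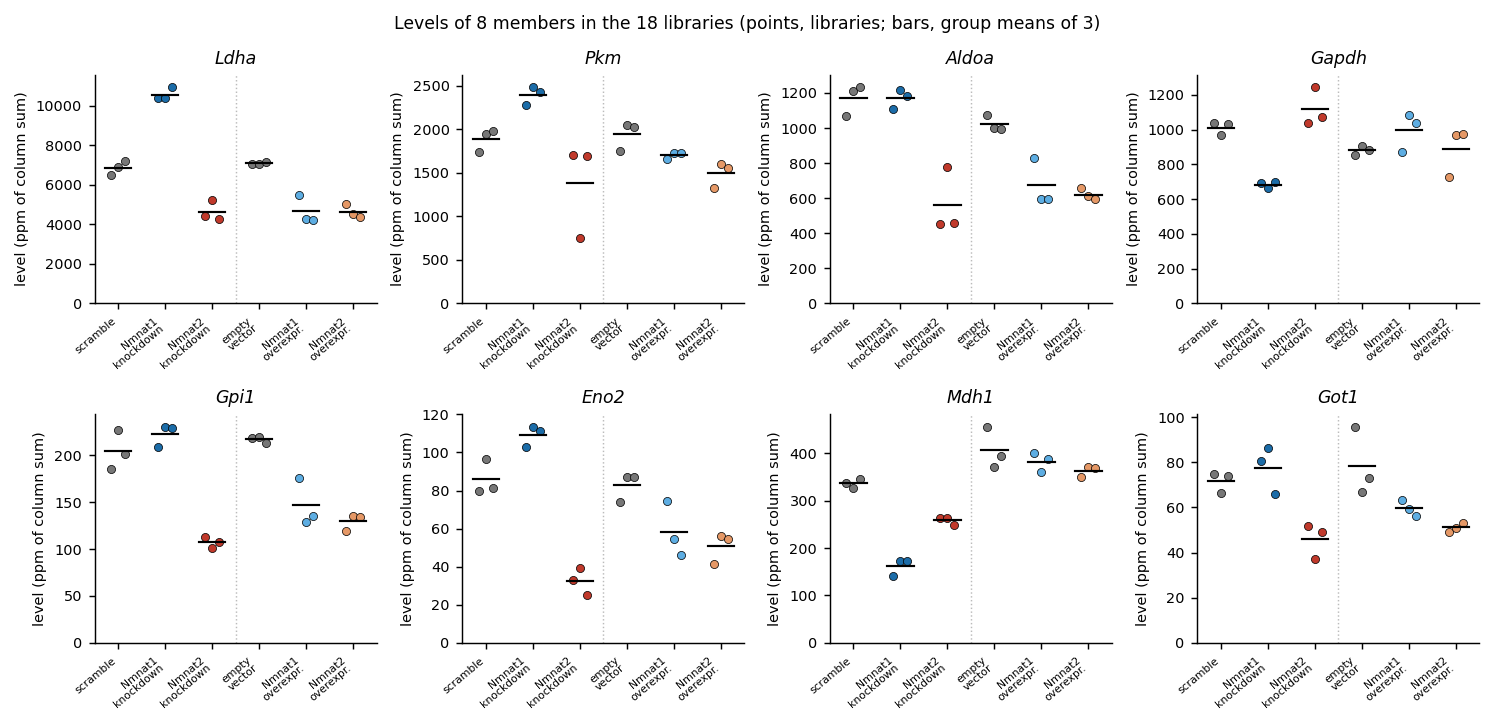
Each panel is 1 member, the y axis its level in ppm of the column sum from 0, and each point 1 library of the 6 groups, with a bar at the mean of 3; the dotted line separates the tables, which were normalized apart. Ldha lies at 10383 ppm or above in all 3 Nmnat1 knockdown libraries and at or below 5494 ppm in all libraries of Nmnat2 knockdown and of both overexpression groups, Mdh1 is lowest with Nmnat1 knockdown, and library N2_2 is the low point of Pkm with Nmnat2 knockdown.

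The difference between the knockdown arms was tested directly, since both share the scramble libraries. With Nmnat1 knockdown, 6 members were higher than with Nmnat2 knockdown (1.34% of all genes were), all of glycolysis and lactate, and 2 were lower (0.715% were). Ldha was 2.28 times as high (log2 fold change 1.19 ± 0.13, adjusted p = 0.00209 by limma) and Eno2 3.37 times (1.75 ± 0.20, adjusted p = 0.0031). Gpi1 differed by 1.05 ± 0.15 (adjusted p = 0.00776), Aldoa by 1.10 ± 0.20 (0.0248), Tpi1 by 0.82 ± 0.13 (0.014) and Pgam1, the phosphoglycerate mutase, by 0.68 ± 0.14 (0.0421). Pgam1 lay at 308, 290 and 329 ppm with Nmnat1 knockdown and at 204, 186 and 187 ppm with Nmnat2 knockdown, with scramble between them at 270, 277 and 235 ppm. Gapdh (-0.70 ± 0.13, adjusted p = 0.0248) and Mdh1 (-0.67 ± 0.15, adjusted p = 0.0459) were lower with Nmnat1 knockdown. Ldha and Eno2 passed with each of the 9 libraries left out in turn and under the scalings by column sum and by quantiles, but Ldha missed the threshold under median-of-ratios scaling (log2 fold change 0.95, adjusted p = 0.0529, where the median of all genes moved from 0.25 to 0.06). With N2_2 left out 12 members were higher (6.52% of all genes) and 4 lower (7.02%), Ldhb and Pfkp joining Gapdh and Mdh1. Leaving out any other library gave 2 to 6 calls, fewest (Eno2 and Ldha) without N1_2 or without N1_3.

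With Nmnat1 overexpression, Ldha, Aldoa and Gpi1 were lower in all 3 libraries, and 0 members passed the limma threshold, where 0.121% of 20725 genes did. At an unadjusted p under 0.05 there were 9 members, beside 9.57% of all genes. Without overlap between the groups, 14 members were lower, where 10.1% of all genes were, and 2 were higher, where 7.74% were. The median log2 fold change was -0.08 over members and -0.04 over all genes, and -0.03 in both without the libraries numbered 1. The 14 were Slc2a1, Gpi1, Pfkl, Aldoa, Tpi1, Pkm and Ldha of glycolysis, Idh3a, Idh3g, Ogdh, Suclg1, Fh1 and Mdh2 of the TCA cycle, and Got1, and the 2 were Ldhb and Slc16a1.

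Ldha lay at 7062, 7079 and 7184 ppm with empty vector and at 5494, 4260 and 4231 ppm with Nmnat1 overexpression. The overexpression libraries were all lower, and number 1 was nearest to the control. The log2 fold change was -0.62 ± 0.13 (adjusted p = 0.113 by limma). Aldoa lay at 1074, 1000 and 993 ppm with empty vector and at 827, 597 and 597 ppm with overexpression (-0.62 ± 0.13, adjusted p = 0.112), and Gpi1 at 218, 219 and 214 ppm and at 176, 129 and 135 ppm (-0.57 ± 0.12, adjusted p = 0.115). Library 1 was the highest overexpression library in each of these genes. Ogdh, the first subunit of the oxoglutarate dehydrogenase complex, lay at 184, 186 and 186 ppm with empty vector and at 159, 153 and 149 ppm with overexpression, a small and even difference (-0.27 ± 0.09, adjusted p = 0.35). With the libraries numbered 1 left out of all groups, 8 members passed as lower (4.94% of all genes), namely Ldha, Aldoa, Gpi1, Eno2, Ogdh, Tpi1, Pkm and Idh3g, and 2 as higher (6.21%), Ldhb and Gapdh. Leaving out only library 1 of either overexpression group gave 3 calls (Aldoa, Gpi1 and Ldha), and leaving out any other single library gave 0.

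With Nmnat2 overexpression, Gpi1 and Aldoa fell, where 0.347% of 20725 genes were called lower, and no member was called higher. Without overlap, 13 members were lower, where 7.73% of all genes were, and 1 (Idh1) was higher, where 8.60% were. Of the 13, 7 belong to glycolysis, 5 to the TCA cycle and 1 is Got1. The median log2 fold change was -0.11 over members and 0.06 over all genes, and -0.055 and 0.03 without the libraries numbered 1. Gpi1 lay at 120, 135 and 134 ppm, against 214 to 219 ppm with empty vector (log2 fold change -0.74 ± 0.12, adjusted p = 0.0356 by limma), and Aldoa at 657, 610 and 596 ppm, against 993 to 1074 ppm (-0.72 ± 0.13, adjusted p = 0.0481). Every overexpression library was below every control library in both genes. Ldha lay at 5051, 4513 and 4375 ppm, also without overlap (-0.62 ± 0.13, adjusted p = 0.0806). Got1, the cytosolic aspartate aminotransferase, lay at 95.8, 67.0 and 73.0 ppm with empty vector and at 49.3, 51.1 and 53.2 ppm with overexpression (-0.59 ± 0.14, adjusted p = 0.103). Eno2 (-0.70), Pkm (-0.38), Tpi1 (-0.33) and Ogdh (-0.33) were lower without overlap, while Gapdh (0.00), Pgk1 (-0.11) and Pgam1 (-0.08) overlapped the controls.

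With the libraries numbered 1 left out, 7 members passed as lower with Nmnat2 overexpression (3.53% of all genes), namely Aldoa, Ldha, Gpi1, Eno2, Got1, Pkm and Ogdh, and 1 as higher (4.65%), Ldhb at 0.45 ± 0.06. Leaving out library 1 of either overexpression group gave 3 calls (Aldoa, Gpi1 and Ldha), and leaving out any other single library gave 0. Between the overexpression arms, 0 members passed, where 0.0193% of all genes did. At an unadjusted p under 0.05 there was 1 member, Fh1, beside 4.46% of all genes, and the log2 differences of the members lay between -0.29 and 0.22. Both arms share the empty vector libraries, so that their values stand side by side here and are not counted as independent.

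The enzymes with tissue forms were compared as shares, which do not depend on how a library is scaled. Over 6 sets in 4 comparisons, an exact two-sided permutation test of 3 against 3 libraries cannot go below p = 0.1, and the smallest adjusted p over the 24 tests was 0.24. Ldhb, the subunit that favours lactate to pyruvate, made up 4.37%, 4.05% and 3.94% of lactate dehydrogenase signal with scramble and 2.78%, 2.51% and 2.44% with Nmnat1 knockdown. These shares did not overlap (exact p = 0.1), with Ldhb itself at similar levels (means of 294 and 279 ppm) and Ldha higher. With Nmnat1 overexpression the Ldhb share was 5.01%, 7.83% and 8.06% against 3.56% to 3.74% with empty vector (exact p = 0.1), and with Nmnat2 overexpression 3.85%, 7.63% and 7.36% (exact p = 0.1). With Nmnat2 knockdown it was 7.48%, 2.92% and 7.38%, where N2_2 lay below and the other libraries above scramble (exact p = 0.4).

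Mdh2 made up 68.4%, 71.2% and 68.0% of malate dehydrogenase signal with scramble and 86.8%, 83.2% and 83.8% with Nmnat1 knockdown, a difference of 15.4 percentage points (exact p = 0.1). In the other 3 comparisons the Mdh2 share differed by at most 2.23 points. The Eno2 share of enolase was 14.7% to 15.7% with Nmnat1 knockdown against 9.39% to 11.8% with scramble (exact p = 0.1), and 6.67% to 8.39% with Nmnat2 overexpression against 9.52% to 9.88% with empty vector (exact p = 0.1). Aldoc made up 3.90% to 4.16% of aldolase with scramble and 2.13% to 2.99% with Nmnat1 knockdown (exact p = 0.1). It was above the empty vector in both overexpression groups, at 6.35% to 7.99% and 7.28% to 9.04% against 4.87% to 5.54% (exact p = 0.1 in each), where Aldoa was the form that was lower. The Hk2 share of hexokinase and the Pfkp share of phosphofructokinase overlapped their controls in all comparisons except Hk2 with Nmnat1 overexpression, where Hk2 stood at 1.19 to 4.10 ppm.

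**Figure D4:**
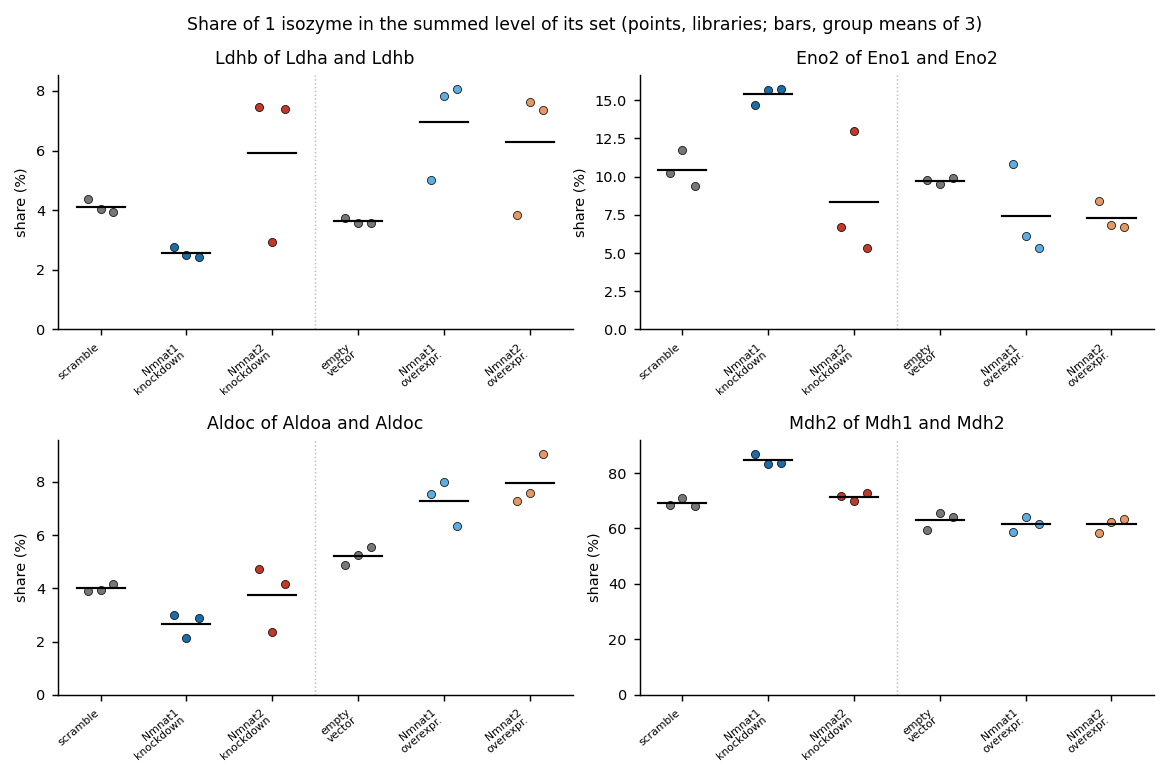
Each panel gives the share in % (y axis, from 0) that 1 isozyme has in the summed level of its set, by library, for the 6 groups, with a bar at the mean of 3. The Ldhb share is 2.58% on average with Nmnat1 knockdown and 6.97% with Nmnat1 overexpression, and the Mdh2 share is 84.6% with Nmnat1 knockdown against 69.2% with scramble.

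Some members have near-identical copies between which counting could split reads. Gapdh shares more than 20% of its 31-base words with 13 annotated genes, of which 12 were in the tables, and their summed level (1440 ppm on average in the knockdown table) exceeded that of Gapdh. Most of it was in Gm13394, at 1150 ppm on average in either table. Summed with its copies, Gapdh averaged 2581 ppm with scramble and 1826 ppm with Nmnat1 knockdown (log2 fold change -0.495 ± 0.13 by limma, adjusted p = 0.194) and differed by -0.58 between the knockdown arms (adjusted p = 0.048). Eno1 has copies in Eno1b and Gm4735 (366 and 364 ppm on average in the knockdown table), and with both added it differed with Nmnat2 knockdown by -1.07 ± 0.21 on the log2 scale (adjusted p = 0.0621). Pgam1 with Pgam1-ps2 kept its call between the knockdown arms (0.69, adjusted p = 0.0438). Values of these genes, of Ldhb with its copy Gm5514 and of Pgk1 and Got2 are uncertain to that extent. So is the order of the members in the controls. With copies added, Gapdh (2581 ppm with scramble) would stand above Pkm (1886 ppm) and Eno1 (1671 ppm) above Aldoa (1169 ppm). The isozyme shares of enolase and lactate dehydrogenase were taken without the copies of Eno1 and Ldhb. The library kit does not mark strand, so that reads of overlapping antisense genes cannot be told apart from those of members.

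The rest of the pathway was read from 8 further lists of 92 genes in all. Against the controls, 1 of the tested genes of these lists passed in any of the 4 comparisons: Bnip3, a mitophagy receptor and known target of hypoxia-inducible factor, fell with Nmnat2 knockdown from a mean of 59.1 to 22.0 ppm (log2 fold change -1.39 ± 0.17, adjusted p = 0.0213 by limma). Over the 14 tested genes of its list the median log2 fold change was -0.17 with Nmnat2 knockdown, beside -0.23 over all genes, and 0.19 without N2_2, where 3 genes were called higher and 1 lower. In the other isozymes, carriers, shuttles, pentose phosphate and glycogen lists, 0 passed with all libraries. The list of remaining TCA cycle and anaplerotic genes had 17 tested members in the knockdown table, with medians of 0.07 for Nmnat1 and -0.49 for Nmnat2 knockdown, beside -0.00 and -0.23 over all genes. Without N2_2 the latter was -0.21, beside -0.145, with 2 called higher and 3 lower, and with Nmnat1 knockdown 3 were called higher. Without N2_2, calls in the other lists with Nmnat1 knockdown were 1 lower in the isozymes, 2 higher among the regulators, 1 higher and 1 lower in the shuttles, 2 lower in the pentose phosphate pathway and 2 higher and 1 lower in the hypoxia list. With Nmnat2 knockdown they were 1 higher among the regulators, 2 lower in the shuttles, 1 higher and 1 lower in the pentose phosphate pathway and 2 lower in the glycogen list. Over all genes without N2_2, 4.82% were called higher and 3.60% lower with Nmnat1 knockdown, and 7.99% and 7.51% with Nmnat2 knockdown. Without the libraries numbered 1, 1 of 6 isozymes and 1 of 7 pentose phosphate genes were called higher with Nmnat1 overexpression. Lower were 3 of 17 remaining TCA cycle genes, 2 of 8 glycogen genes, 1 of 9 regulators and 1 of 7 shuttle genes. In the hypoxia list 2 of 14 were higher and 1 lower. With Nmnat2 overexpression each list had at most 1 gene higher and 1 lower. Over all genes 6.21% were called higher and 4.94% lower with Nmnat1 overexpression, and 4.65% and 3.53% with Nmnat2 overexpression. Between the knockdown arms, 1.34% of all genes were called higher with Nmnat1 knockdown and 0.715% lower. The median log2 fold change over all genes was 0.248, so genes in general were shifted upward. By list, 1 of 10 regulators, 2 of 17 remaining TCA cycle genes, 1 of 7 shuttle, 1 of 10 glycogen and 2 of 14 hypoxia genes were called. These 7 genes of 5 lists were all higher with Nmnat1 knockdown. They were Pdk2, a pyruvate dehydrogenase kinase (0.98 ± 0.17), Ogdhl, the neural relative of Ogdh (1.71 ± 0.25), the mitochondrial PEP carboxykinase gene Pck2 (1.37 ± 0.27), the glutamate carrier gene Slc25a22 (1.58 ± 0.33), the glycogen precursor enzyme gene Ugp2 (1.71 ± 0.37), Bnip3 (1.30 ± 0.17) and Ndrg1 (0.94 ± 0.19). Hif1a, which encodes the hypoxia-inducible subunit, averaged 516 ppm with Nmnat2 overexpression and 377 ppm with empty vector (log2 fold change 0.45 ± 0.10, adjusted p = 0.082).

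Markers of retinal cell types moved in the same libraries as the members, and in bulk samples fewer cells of a type and less RNA per cell cannot be told apart. With Nmnat2 knockdown, 4 of 17 tested rod markers fell (Pde6b, Prph2, Nr2e3 and Rdh12), where 0.360% of all genes did. The summed level of the 18 rod markers was 3292 to 6408 ppm, highest in N2_2, against 8367 to 8590 ppm with scramble. With Nmnat1 overexpression the rod sum was 4325 to 7332 ppm, highest in library 1, and with Nmnat2 overexpression 4220 to 5606 ppm, also highest in library 1, against 8347 to 8857 ppm with empty vector; 0 and 2 of 17 markers passed. With Nmnat1 knockdown the rod sum was 8689 to 8753 ppm and 0 of 17 passed. Of the 11 cone markers, 2 fell with Nmnat2 knockdown and 3 with Nmnat2 overexpression, and their sum with Nmnat2 knockdown was 826 to 4145 ppm, highest in N2_2, against 2272 to 2762 ppm. Between the knockdown arms, 5 of 17 tested rod, 2 of 11 cone and 2 of 4 pigment epithelium markers were higher with Nmnat1 knockdown. Lower there were 4 of 10 amacrine and horizontal, 1 of 12 retinal progenitor and 1 of 7 ganglion cell markers. Over all genes 1.34% were higher and 0.715% lower in that comparison. No rod, cone or Müller glia marker was at 0 in any group. The amacrine marker Calb2 fell with Nmnat1 knockdown and rose with Nmnat2 knockdown and Nmnat2 overexpression. With Nmnat1 overexpression Calb2 lay at 89.3 to 132 ppm against 34.8 to 47.3 ppm with empty vector, without passing (log2 fold change 1.52 ± 0.24, adjusted p = 0.0525 by limma).

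The 12 Müller glia markers summed to 5933 to 6772 ppm with scramble, 3246 to 3324 ppm with Nmnat1 knockdown and 3409 to 4390 ppm with Nmnat2 knockdown. Of 11 tested, 1 (Crym) fell with Nmnat1 knockdown and 2 (Apoe and Crym) fell with Nmnat2 knockdown, and 0 passed in the overexpression groups, where the sum was 6450 to 7815 and 4832 to 8843 ppm against 6447 to 7520 ppm. The part of cell type shares in the changes of the members was not tested. Side by side, the glycolysis and lactate members summed to 12810 to 14059 ppm with scramble, 17054 to 17848 ppm with Nmnat1 knockdown, and 9315 to 9577 ppm with Nmnat2 knockdown. They summed to 13254 to 13679 ppm with empty vector and to 10055 to 11075 and 9515 to 10194 ppm with Nmnat1 and Nmnat2 overexpression. Ldha was the largest single term: without it, all other members summed to 10350 to 10552 ppm with Nmnat1 knockdown and to 9723 to 10271 ppm with scramble. The 16 pyruvate dehydrogenase and TCA cycle members summed to 2742 to 2865 ppm with scramble, 3076 to 3215 ppm with Nmnat1 knockdown and 1847 to 2822 ppm with Nmnat2 knockdown, lowest in N2_2. Without N2_2 and without the libraries numbered 1, rod markers passed as lower in 15 of 17 with Nmnat2 knockdown (7.51% of all genes). In each overexpression group 14 of 17 did (4.94% of all genes with Nmnat1 and 3.53% with Nmnat2). With Nmnat1 knockdown without N2_2, 10 of 11 Müller glia markers and 5 of 12 retinal progenitor markers passed as lower (3.60% of all genes). Of the 17 rod markers there, 3 were higher (4.82% of all genes) and 3 lower. In the overexpression groups without the libraries numbered 1, Müller glia markers passed as higher in 6 of 11 with Nmnat1 and in 8 of 11 with Nmnat2. Amacrine and horizontal cell markers did in 6 of 10 in each, where 6.21% and 4.65% of all genes passed as higher. With Nmnat2 knockdown without N2_2, 5 of 10 amacrine and horizontal cell markers were higher, and 2 of 11 Müller glia markers were higher and 5 lower. Over all genes 7.99% were called higher there and 7.51% lower.

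**Figure D5:**
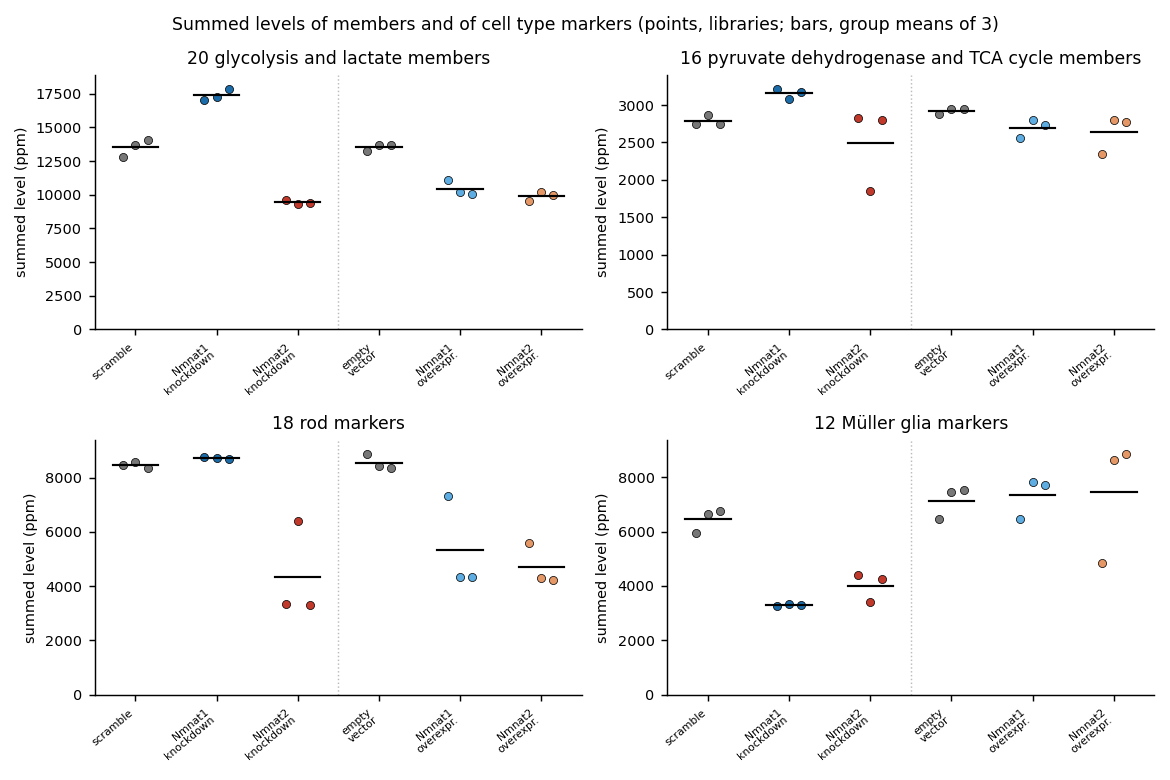
Each panel gives a summed level in ppm (y axis, from 0) by library for the 6 groups, with a bar at the mean of 3: the glycolysis and lactate members, the pyruvate dehydrogenase and TCA cycle members, 18 rod markers and 12 Müller glia markers. The glycolysis sum is highest in the 3 Nmnat1 knockdown libraries, and the rod sum is below its control in Nmnat2 knockdown and both overexpression groups, with N2_2 and the libraries numbered 1 nearest to the controls.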

How the data were processed

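RNA was measured by sequencing in 18 libraries of sorted retinal cells, made with SMART-Seq v4 from 1 ng of RNA per the labels' protocols. The deposited tables give per gene a length-scaled signal that the authors computed. Its columns are named as TPM, but they sum to 14.4 to 29.6 times 1000000 in the knockdown table and 17.4 to 26.2 times in the overexpression table, so the values were treated as a signal of unstated scale. The submitters' processing notes name Salmon 0.11.3, sleuth 0.30.0 and GRCm38.p6, and how they were used is not given in the sources used here. Each table ended in an incomplete line, which was left out.

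Values were rescaled to ppm of the column sum. Genes that reached 1 ppm in 3 or more of the 9 libraries were tested with limma 3.58.1 (R 4.3.3) on log2(ppm + 1), with the 3 groups of a table in 1 fit, a mean-variance trend and Benjamini-Hochberg adjustment at 0.05. The tables were normalized separately, so each was tested by itself. The fit was tested on simulated data. Isozyme shares were compared with exact permutation tests (scipy 1.17.1, Python 3.11.15). At an estimated 11.4 to 20.9 reads per ppm and kb, 76.7% to 86.3% of low values lay within 0.1 of whole reads. Evenly spread values would give 20%, but the size of 1 read was picked in each library to fit such values. The 20% is therefore not a chance level for these shares. Counts were not recovered.

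Values in every library are printed for members past the threshold in any comparison and for the 4 members with the smallest p in each comparison with control. Isozymes are given together, and the others by ranges and counts. Members and lists were chosen with earlier results of these data known. Alternatives were the pseudocount, the filter, the scaling, fits of 2 groups, no trend, array weights, left-out libraries and the replicate block. Summing copies and leaving N2_2 out of list counts were chosen after seeing the data.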

Additional observations from a re-analysis of the deposited data

Results flagged for a closer look

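In 8 members the response to Nmnat1 knockdown differed from the response to Nmnat2 knockdown by a test of the difference itself, made with limma within the knockdown table. The log2 difference, Nmnat1 minus Nmnat2 knockdown, was 1.19 for Ldha, 1.75 for Eno2, 1.05 for Gpi1, 1.10 for Aldoa, 0.82 for Tpi1 and 0.68 for Pgam1. It was -0.70 for Gapdh and -0.67 for Mdh1. Cell type markers were also called between these arms, as given with the markers above, and their part in these differences was not tested. In all 8 members the 3 libraries of Nmnat1 knockdown did not overlap the 3 of Nmnat2 knockdown. As the 8 were picked by the test on these same libraries, this adds no support. Of all 40 members, 22 were higher and 2 lower without overlap, and the share over all genes was not counted for this comparison. The median log2 difference was 0.468 over members and 0.248 over all genes. As genes in general were shifted the same way, these counts cannot be read as particular to the members.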

How the results depend on the processing

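The direction of no named member reversed under any alternative: of 451 fold changes recomputed, 294 stayed on the same side of the threshold, 120 no longer passed and 37 newly passed. All 168 isozyme shares recomputed moved by less than the spread. Leaving out 1 library of 3 cannot move a mean further than that, so those checks do not show that the shares are stable. Not every share kept its side of the control. With Nmnat2 knockdown the mean Aldoc share was below that of scramble, but N2_1 and N2_3 were both above the scramble mean and only N2_2 was below it. The number of members called was less stable than the directions of the named members, and the cause was not tested. With Nmnat1 knockdown (1 member) it was 0 with no filter or no trend, 2 with a filter of 5 ppm, 5 with only the 2 groups compared, 3 with array weights and 0 to 10 with 1 library left out. With Nmnat2 knockdown (3 members) it was 1 with no filter, 6 with a filter of 5 ppm, 0 with median-of-ratios scaling, 5 with quantile normalization, 0 with only 2 groups or no trend, 13 with array weights and 0 to 15 with 1 library left out. Between the knockdown arms (8 members) it was 5 with no filter, 4 with median-of-ratios scaling, 3 with only 2 groups, 2 with no trend, 20 with array weights and 2 to 16 with 1 library left out. With Nmnat1 overexpression (0 members) it was 7 with array weights, 10 without the libraries numbered 1 and 0 to 3 with 1 library left out. With Nmnat2 overexpression (2 members) it was 1 with a pseudocount of 5 ppm or quantile normalization, 0 with no filter or no trend, 7 with array weights, 8 without the libraries numbered 1 and 0 to 3 with 1 library left out. Between the overexpression arms it was 0 in every alternative. With the replicate number as a replicate block, 2 members passed with Nmnat1 overexpression (Aldoa and Ldha), where the main fit had 0. With Nmnat2 overexpression 3 passed (Aldoa, Gpi1 and Ldha), and between the arms 0 did. Deviations of same-numbered libraries correlated at 0.027 to 0.461 over 9 pairs, all above 0, and those of other numbers at -0.378 to 0.242. The numbers were not taken as pairs in the main fits, since not every pair was over 0.1. The labels state no pairing, and whether same-numbered libraries share an origin was not tested. Numbers in the column names of the knockdown table could not be matched to the replicate numbers of the labels, so a block was not fitted there.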
